A study of Mus musculus with 6 samples.

Results

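The TRIM family genes were taken from the deposited expression table as the protein-coding genes whose symbol is Trim followed by a digit, without Trim28. This rule used no measured value. It gave 67 members out of the 53023 genes of the table, and 69 genes of any type had such a symbol, the 2 left out being Trim28 and the pseudogene Trim30e-ps1. Of the 67 members, 31 had 2 or more libraries at 1 FPKM (fragments relative to gene length and depth) or above and were tested, and 36 were not.

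The 6 libraries were made from two-cell mouse embryos of the ICR strain at 28 h post insemination (hpi), with 5 embryos pooled in each library and 2 libraries in each of 3 groups. The non-injection embryos received no mRNA, and the other groups received mRNA for mCherry-tagged PIASy, either PIASy-WT or PIASy-Mut, in which the C335F change removes the SUMO ligase activity. PIASy, the product of Pias4, is an E3 ligase that attaches the small modifier SUMO to other proteins. The mRNA was injected at 100 ng/µl into the cytoplasm between 1.5 and 3 hpi. For culture to later stages, the authors kept injected embryos with a fluorescence signal at 9 hpi. They do not state this selection for the sequenced embryos, and the non-injection embryos did not go through it. The comparison of PIASy-WT with non-injection therefore holds injection, any such selection and the protein together, while PIASy-WT and PIASy-Mut share the first steps. The libraries held from 871663 to 1363928 fragments on genes, and a level of up to 3 fragments, treated here as not detected, equals from 2.20 to 3.44 CPM (fragments relative to depth). Reads had no molecular identifiers, and this limit covers counting error only. Pias4 itself was at 2.98 and 3.59 FPKM in non-injection and from 579 to 862 FPKM in the 4 injected libraries. The 7 two-cell markers were above 0 in every library, and all 7 had over 3 fragments except in non-injection 2, where 6 did. In each library from 5 to 7 of the 9 cumulus and granulosa cell markers were at 0. Amh, Foxl2 and Inhba were at 0 in all 6. In each library 1 or 2 of the 9 were above 3 fragments. The highest was Tnfaip6, at up to 11 fragments in PIASy-WT 1, except in non-injection 2, where it was Cyp19a1 at 5. The summed level of the 9 was from 3.67 to 17.2 CPM. The 5 blood and immune markers summed to between 3.44 and 17.7 CPM. Hba-a1 was the highest of these in every library, at from 2 to 16 fragments. The embryos were made by in vitro fertilization. The labels do not say whether the libraries of a group came from separate inseminations or cultures, so the P-values measure only the spread between these samples. In pooled embryos, fewer cells of a type and less RNA per cell cannot be told apart.

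TRIM proteins carry an N-terminal module made of a RING finger, B-box domains and a coiled coil, and most act as E3 ubiquitin ligases, which mark proteins for degradation or change their behaviour. The C-terminal domain differs between members and picks the target; the most common one in mammals is the SPRY domain. Most members are expressed in many tissues or in immune cells, but some are kept to the germ line or to the first cleavages. The Trim43 genes are known for a burst of transcription when the embryonic genome is switched on, and the human gene of that name is a known target of the homeobox factor DUX4.

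The stretches just upstream of 3 of the start sites are shown because they belong to abundant members of each list and differ in base composition. They are RefSeq sequences of the GRCm38.p6 build, 250 bases long, read 5′ to 3′ on the strand of the gene and ending at the base before the RefSeq start. Trim43a is from the early-embryo list, Trim61 from the oocyte or germ cell list and Trim59 from the broadly expressed list. Trim60 and Trim61 have 1 RefSeq start in common, so the middle stretch is that of both. Capitals mark a match to one of the motifs searched on both strands, which were TATAAA (the TATA box), CCAAT (bound by NF-Y), GGATTA (bound by Obox and related homeobox proteins) and the DUX motif, TGATT and AATCA with 1 base of any kind between them.
Trim43a, chr9:88580641-88580890, plus strand: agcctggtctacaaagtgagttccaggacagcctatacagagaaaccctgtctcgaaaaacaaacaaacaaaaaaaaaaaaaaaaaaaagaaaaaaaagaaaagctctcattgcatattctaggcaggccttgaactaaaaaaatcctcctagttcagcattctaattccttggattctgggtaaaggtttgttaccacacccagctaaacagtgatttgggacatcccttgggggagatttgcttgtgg
Trim60 and Trim61, chr8:65018689-65018938, minus strand: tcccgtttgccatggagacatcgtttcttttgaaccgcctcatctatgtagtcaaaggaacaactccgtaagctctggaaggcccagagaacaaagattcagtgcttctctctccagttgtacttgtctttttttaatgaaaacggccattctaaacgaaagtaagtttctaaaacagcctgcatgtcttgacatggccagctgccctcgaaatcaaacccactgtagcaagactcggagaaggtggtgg
Trim59, chr3:69044743-69044992, minus strand: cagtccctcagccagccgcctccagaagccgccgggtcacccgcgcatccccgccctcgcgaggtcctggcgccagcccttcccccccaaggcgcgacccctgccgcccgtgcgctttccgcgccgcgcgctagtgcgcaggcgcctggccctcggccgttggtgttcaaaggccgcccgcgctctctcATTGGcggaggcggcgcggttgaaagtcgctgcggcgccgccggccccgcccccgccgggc
The stretch of Trim43a had a GC content of 39.2% and the one of Trim60 and Trim61 45.6%, and neither held any of the 4 motifs. The stretch of Trim59 had a GC content of 77.6% and held CCAAT on the opposite strand, 61 bases before the start. The median GC content was 52.4% over all promoters and 52% over those of members. Because the 3 stretches were picked partly to differ, their contrast does not describe the lists. The 250 bases before the start were searched in all 32851 RefSeq promoters. TATAAA was found in 12.4%, CCAAT in 33.8%, GGATTA in 6.25% and the DUX motif in 0.0304%. A promoter was given for 52 of the 67 members, with 66 promoters in all. TATAAA was found in 6 of these 66, CCAAT in 27, GGATTA in 6 and the DUX motif in 0. A match is a run of letters and was not tested as a binding site.

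TRIM transcripts made up a similar share of the RNA in the 3 groups, but the Trim43 genes and Trim61 took different parts of it. The 67 members together were at 5104 and 4562 CPM in non-injection, 5399 and 4714 CPM in PIASy-Mut and 4753 and 4771 CPM in PIASy-WT. The PIASy-WT totals lay inside the range of the other 4 libraries. Within that total, Trim43a, Trim43b and Trim43c supplied 38.6% and 33.1% of the non-injection fragments, 47.6% and 29.0% of those in PIASy-Mut, and 3.68% and 2.02% of those in PIASy-WT. Trim61 alone supplied 25.9% and 32.6% of the non-injection fragments, 14.5% and 30.5% of those in PIASy-Mut, and 59.2% and 63.5% of those in PIASy-WT. In both shares PIASy-WT stood apart, lowest for Trim43 and highest for Trim61, while non-injection and PIASy-Mut overlapped. Per length, the FPKM of Trim61 divided by the summed FPKM of the Trim43 genes was 0.719 and 1.04 in non-injection and 0.325 and 1.11 in PIASy-Mut. In PIASy-WT this ratio was 17.2 and 33.3.

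**Figure D1:**
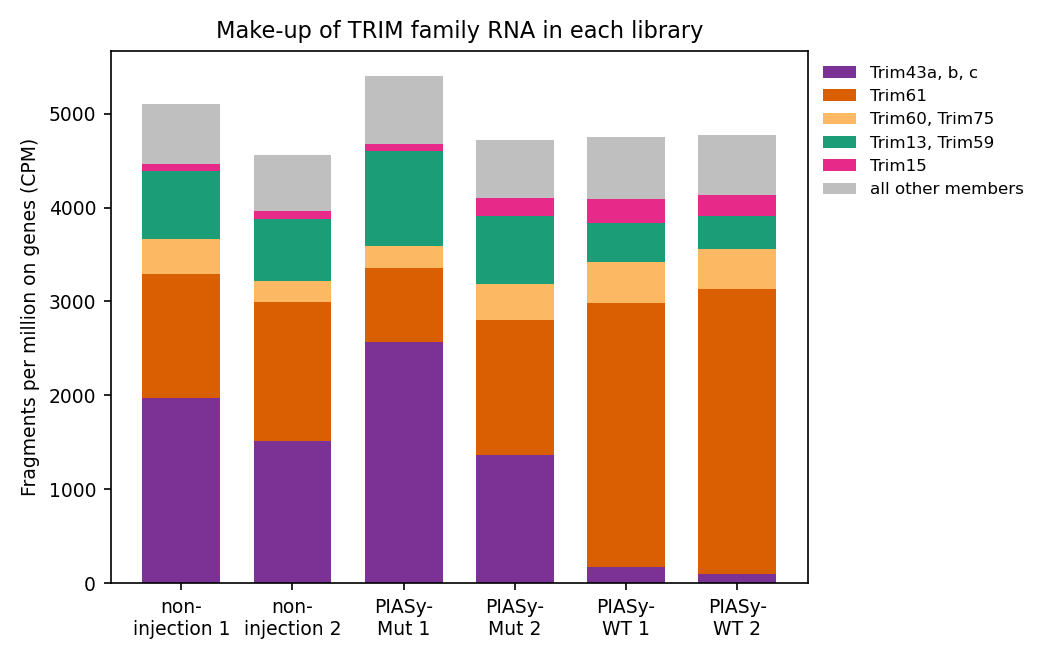
Stacked bars of the fragments relative to depth (CPM, y axis) from TRIM family members in each of the 6 libraries (x axis), split into the Trim43 genes, Trim61, Trim60 with Trim75, Trim13 with Trim59, Trim15 and all other members. The bars are of similar height, from 4562 to 5399 CPM, while the Trim43 part is from 1369 to 2568 CPM in the 4 libraries of non-injection and PIASy-Mut and 175 and 96.6 CPM in PIASy-WT.

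In every library, 12 members had at least 50 fragments and 10 members were at 10 FPKM or more. By mean FPKM over the 6 libraries, the order from the top was Trim61, Trim43b, Trim43a, Trim13, Trim59, Trim43c, Trim15, Trim60 and Trim75. This order pools the groups, and in PIASy-WT alone the mean FPKM was 1476 for Trim61, 123 for Trim15, 89.6 for Trim13, 85.1 for Trim60, 71.2 for Trim59 and 57.5 for Trim75, with Trim43b at 28.8 and Trim43a at 24.2 below them. Trim61 ranked 51st and 45th among protein-coding genes by FPKM in non-injection, 102nd and 40th in PIASy-Mut, and 25th and 22nd in PIASy-WT. Trim43a ranked from 71st to 144th in the 4 libraries of non-injection and PIASy-Mut, and 1448th and 2263rd in PIASy-WT.

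**Figure D2:**
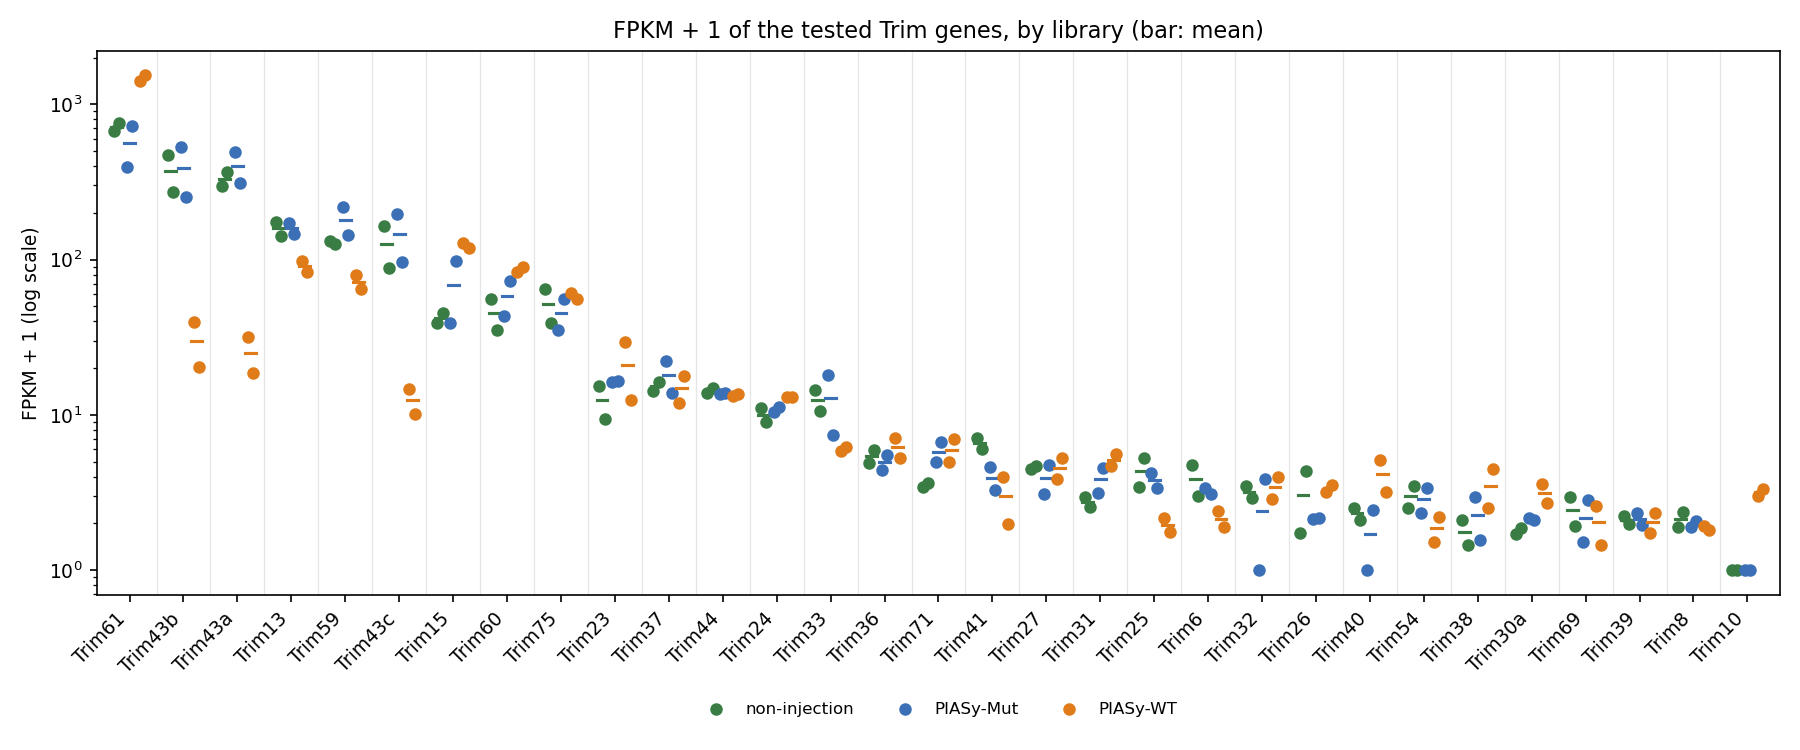
FPKM + 1 on a log axis (y axis) of the 31 members tested (x axis, ordered by mean FPKM), with 1 point per library, 2 per group, and a bar at each group mean. The levels run from 1531 FPKM for Trim61 in PIASy-WT down to 0 FPKM for Trim10 in the other groups, and the Trim43 genes are the members whose PIASy-WT points lie farthest below the rest.

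The early-embryo members were the Trim43 genes and Trim71, and the Trim43 genes fell in PIASy-WT. All 3 lie on chromosome 9 of mm10: Trim43a (ENSMUSG00000090693.4) from 88580891 to 88588819 on the plus strand, Trim43c (ENSMUSG00000067399.10) from 88839164 to 88848190 on the plus strand and Trim43b (ENSMUSG00000079162.8) from 89084624 to 89092835 on the minus strand.

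Trim43a was at 297 and 365 FPKM in non-injection, 495 and 309 FPKM in PIASy-Mut, and 30.8 and 17.5 FPKM in PIASy-WT, from 81 and 40 fragments in the last group. Both PIASy-WT libraries were far below the other 4, which overlapped each other. The mean FPKM was 331 ± 47.5 (SD, n = 2) for non-injection, 402 ± 132 for PIASy-Mut and 24.2 ± 9.38 for PIASy-WT. The mean was thus 13.7 times higher without injection, and 16.6 times higher with PIASy-Mut, than with PIASy-WT. The difference of log2(FPKM + 1) between PIASy-WT and non-injection was -3.77 (SE 0.37, adjusted P=0.0224 by limma). Against PIASy-Mut it was -4.01 (SE 0.37, adjusted P=0.0219 by limma).

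Trim43b was at 467 and 271 FPKM in non-injection, 530 and 250 FPKM in PIASy-Mut, and 38.4 and 19.2 FPKM in PIASy-WT. As before, PIASy-WT was below the other 4 libraries, and the non-injection values lay inside the range of those of PIASy-Mut. The difference of log2(FPKM + 1) was -3.66 against non-injection (SE 0.52, adjusted P=0.0283 by limma) and -3.69 relative to PIASy-Mut (SE 0.52, adjusted P=0.0248 by limma). The ratios of mean FPKM were 12.8 and 13.5.

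Trim43c was the lowest of the Trim43 genes in every library, at 162 and 87.5 FPKM in non-injection, 194 and 95.7 FPKM in PIASy-Mut, and 13.6 and 9.18 FPKM in PIASy-WT. Its difference of log2(FPKM + 1) was -3.30 against non-injection (SE 0.47, adjusted P=0.0285 by limma) and -3.49 relative to PIASy-Mut (SE 0.47, adjusted P=0.0240 by limma). The 3 genes kept similar proportions to each other while their level differed. The FPKM of Trim43a was from 0.636 to 1.34 times that of Trim43b over the 6 libraries, and that of Trim43c from 0.323 to 0.477 times. Values in PIASy-WT lay inside the range of the other libraries for Trim43a over Trim43b, and 1 of the 2 lay above it for Trim43c over Trim43b.

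**Figure D3:**
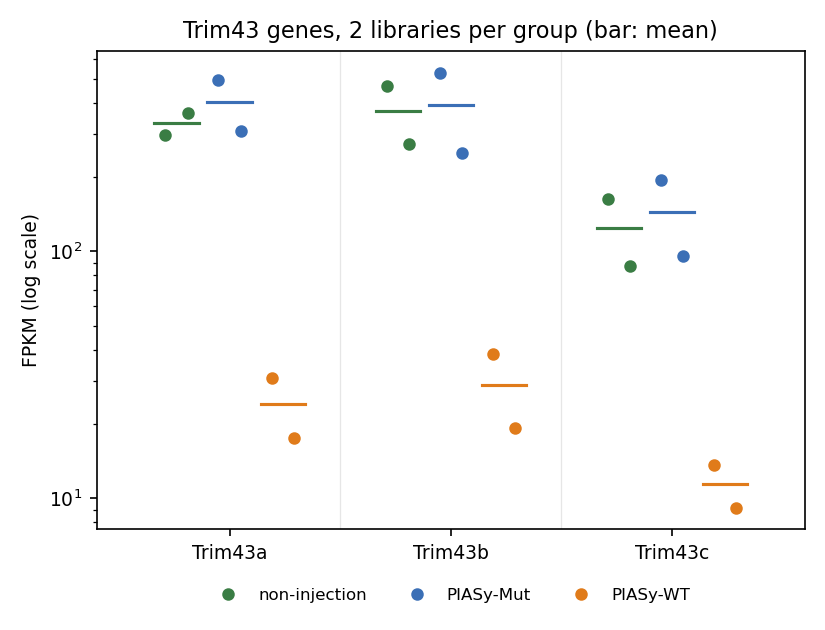
FPKM on a log axis (y axis) of Trim43a, Trim43b and Trim43c (x axis) in the 2 libraries of each group, with a bar at each group mean. In each gene the PIASy-WT points, from 9.18 to 38.4 FPKM, lie below the other 4 points, from 87.5 to 530 FPKM.

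The Trim43 genes are close copies, and their separate levels are uncertain where uniquely mapped reads could not be placed. Of the 50-base sequences of Trim43a, 45.8% were also found in another gene. Over all its 50-base sequences, 38.3% were found in Trim43b and 27.4% in Trim43c. For Trim43b and Trim43c these shares were 47.7% and 42.1%. Trim43c also has 38.6% of its exon bases in common with 9330159M07Rik on the opposite strand, and whether strand was used in counting is not given in the sources used here. With the fragments of all 3 merged into 1 feature, the difference of log2(FPKM + 1) was -3.71 against non-injection (SE 0.43, adjusted P=0.0224 by limma) and -3.83 relative to PIASy-Mut (adjusted P=0.0221 by limma). These are 13.1-fold and 14.2-fold lower levels.

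Among the 10040 genes tested for which 2 or more libraries also held 10 fragments or more, Trim43a had the 50th most negative difference against non-injection and the 33rd against PIASy-Mut. Trim43b ranked 58th and 56th, and Trim43c 88th and 76th. The summed level of the 7 two-cell markers was 2511 and 2301 CPM in non-injection, 2278 and 2866 CPM in PIASy-Mut, and 1765 and 1235 CPM in PIASy-WT. Both PIASy-WT libraries were lowest for this sum as well, by a smaller margin than for Trim43. The sum was not split by gene, so it does not show that each of the 7 was lower. Zscan4c and Zscan4d are among them, and the authors reported that PIASy-WT did not affect activation of the Zscan4 cluster. The part of the lower sum in the Trim43 result was not tested.

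Leaving out 1 library changed the calls but not the direction. In such a fit the library left alone in its group is assumed to vary like the other groups, which supply the spread. Without any 1 of the 4 libraries of non-injection or PIASy-WT, no Trim43 gene was called against either group, and at most 1 gene was called over all genes in those fits. For Trim43a, the difference against non-injection was -3.91 without non-injection 1 (adjusted P=0.161 by limma), -3.62 without non-injection 2 (adjusted P=0.188 by limma), -4.16 without PIASy-WT 1 (adjusted P=0.0637 by limma) and -3.38 without PIASy-WT 2 (adjusted P=0.103 by limma). Without PIASy-Mut 1, the call of Trim43a against PIASy-Mut was also lost, at -3.67 (adjusted P=0.0635 by limma). Trim43b and Trim43c lost their calls in the same fits, with differences between -4.17 and -2.86.

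Trim71, which represses mRNAs in stem cells and is best known from early embryos and the neural tube, did not follow the Trim43 genes. It was at 2.44 and 2.65 FPKM in non-injection, 3.94 and 5.66 FPKM in PIASy-Mut, and 3.96 and 5.97 FPKM in PIASy-WT. Both non-injection libraries were lowest, and the injected groups overlapped. The difference of log2(FPKM + 1) between PIASy-WT and non-injection was 0.73 (SE 0.38, adjusted P=0.262 by limma).

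The comparison over the family was read against all genes tested. Called means that the adjusted P did not exceed 0.05 and that the log2 difference was 1 or more in size. In PIASy-WT against non-injection, 3 of the 31 members tested were called lower, where 5.76% of all 16100 genes were, and 0 were called higher, where 1.03% were. Against PIASy-Mut, 3 were called lower, beside 6.01% of all genes, and 0 higher, beside 0.82%. With a log2 difference of 2 or more in size, 3 were still called lower and 0 higher in each comparison, beside 3.81% lower and 0.602% higher of all genes against non-injection, and 4.06% and 0.516% against PIASy-Mut. These 3 were the Trim43 genes in both comparisons, which share the PIASy-WT libraries and so are not independent. At an unadjusted P under 0.05 there were 11 members against non-injection and 7 against PIASy-Mut, beside 28.2% and 27.7% of all genes. Against non-injection the median log2 difference of the 31 members was -0.02, and against PIASy-Mut it was 0.04, and that of all genes was 0.01 and -0.03. Without the Trim43 genes, the median of the other 28 members was 0.13 and 0.23.

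**Figure D4:**
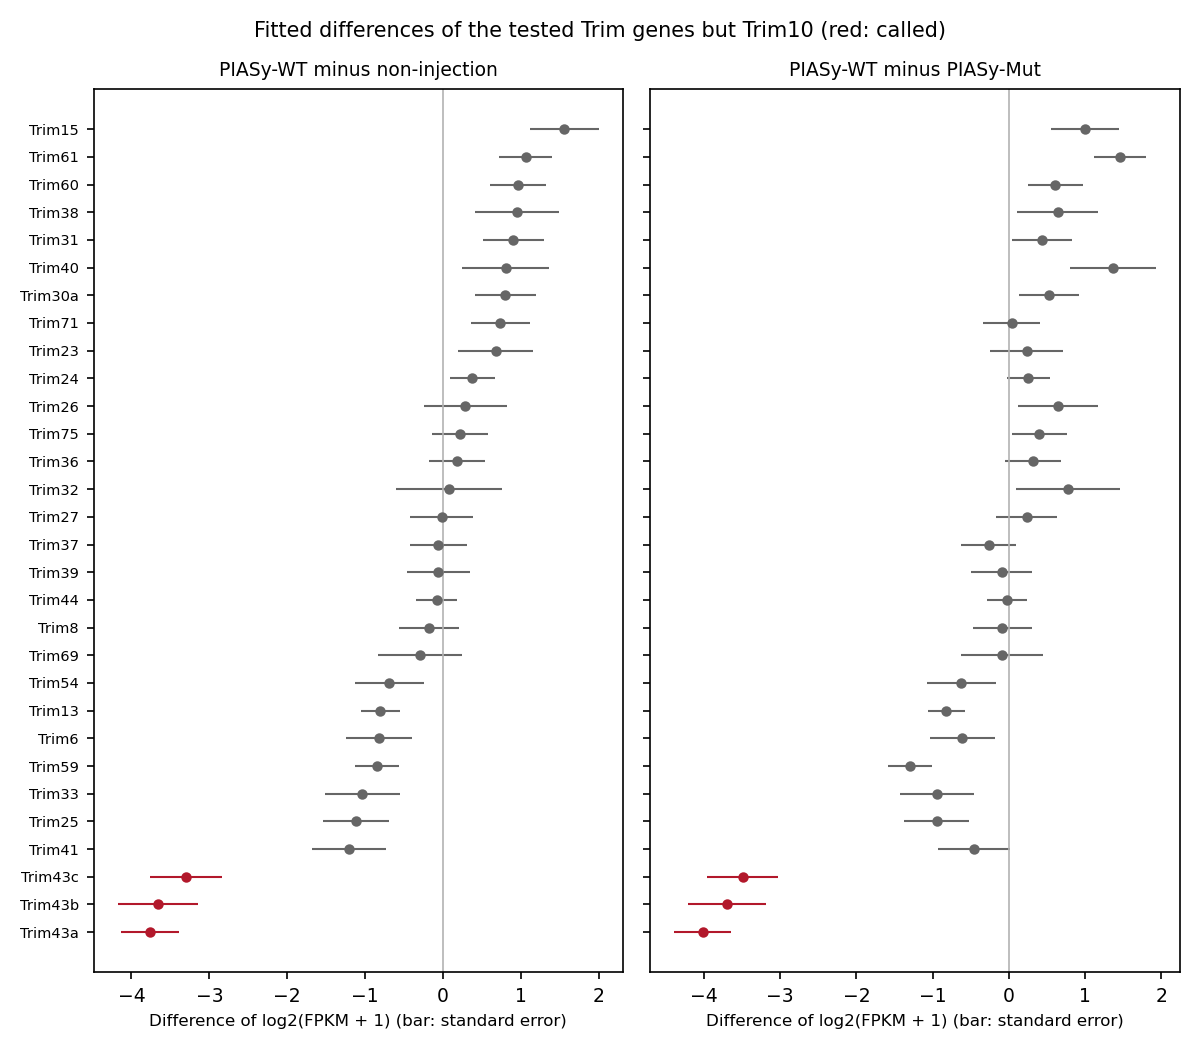
Difference of log2(FPKM + 1) (x axes) between PIASy-WT and non-injection (left) and between PIASy-WT and PIASy-Mut (right) for the members tested other than Trim10 (y axis, ordered by the left panel), with bars for the standard error and the called members in red. The Trim43 genes lie between -4.01 and -3.30, and the other members plotted between -1.30 and 1.55.

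Both PIASy-WT libraries were below all 4 others for 9 members (29.0% of those tested, where 24.4% of all genes were). These were Trim43a, Trim43b, Trim43c, Trim13, Trim59, Trim33, Trim25, Trim6 and Trim54. They were above all 4 others for 8 members (25.8%, where 19.9% of all genes were), namely Trim61, Trim15, Trim60, Trim24, Trim31, Trim40, Trim30a and Trim10, the last of which passed the filter only through PIASy-WT. Trim6, Trim25, Trim30a, Trim31, Trim40 and Trim54 were named after their values were seen.

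The oocyte or germ cell list held 8 members, of which Trim36, Trim60, Trim61, Trim69 and Trim75 were tested. None was called in either comparison of PIASy-WT, beside 5.76% lower and 1.03% higher of all genes against non-injection, and 6.01% and 0.82% against PIASy-Mut. At these shares 0 of 5 says little about the list. Of the 5, 4 had a positive and 1 a negative difference in both comparisons, and the median was 0.22 for non-injection and 0.40 for PIASy-Mut as the reference. The median for non-injection was 0.96 with a filter of 5 FPKM, which tests fewer of these members.

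Trim61 (ENSMUSG00000109718.1), a member with a SPRY domain, lies on the minus strand of chromosome 8 from 65012987 to 65018523. It was at 667 and 751 FPKM in non-injection, 396 and 726 FPKM in PIASy-Mut, and 1421 and 1531 FPKM in PIASy-WT. Both PIASy-WT libraries were higher than all the others, and PIASy-Mut 1 was the lowest. The mean FPKM in PIASy-WT was 2.08 times that in non-injection and 2.63 times that in PIASy-Mut. The difference of log2(FPKM + 1) was 1.06 against non-injection (SE 0.34, adjusted P=0.111 by limma) and 1.46 relative to PIASy-Mut (SE 0.34, adjusted P=0.0588 by limma). Neither passed the threshold. The former passed with only the groups compared and with voom, when 6.04% and 4.66% of all genes were called higher. With a filter of 5 FPKM and with voom, when 2.44% and 3.02% of all genes were called higher, the latter passed this threshold. With either PIASy-Mut library left out, the difference from non-injection passed it at 1.06 (adjusted P=0.0188 without PIASy-Mut 1 and 0.0189 without PIASy-Mut 2 by limma). In those fits the share of all genes called higher rose from 1.03% to 4.96% and 4.71%. Without any 1 of the non-injection or PIASy-WT libraries it was from 0.97 to 1.14 and did not pass (adjusted P from 0.288 to 0.367 by limma). The difference from PIASy-Mut was 1.02 without PIASy-Mut 1 (adjusted P=0.0867 by limma) and 1.89 without PIASy-Mut 2, when it passed (adjusted P=0.0124 by limma). It was from 1.40 to 1.51 without any 1 of the other 4 libraries and did not pass (adjusted P from 0.119 to 0.247 by limma). In the comparison with PIASy-Mut, 0 genes were called without PIASy-Mut 1, and without PIASy-Mut 2 the shares of all genes rose to 13.1% called lower and 6.43% called higher, so a call in that fit says little about a single member.

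Trim60 (ENSMUSG00000053490.8), from 64999307 to 65018584 on the same strand, has 66 exon bases in common with Trim61. It was at 54.6 and 34.1 FPKM in non-injection, 42.5 and 72.2 FPKM in PIASy-Mut, and 81.7 and 88.6 FPKM in PIASy-WT. The PIASy-WT libraries were again the highest, but the difference was 0.96 against non-injection (SE 0.36, adjusted P=0.149 by limma) and 0.61 relative to PIASy-Mut (adjusted P=0.332 by limma). The latter was 0.23 without PIASy-Mut 1 and 0.99 without PIASy-Mut 2, and the former 1.29 without non-injection 1 and 0.63 without non-injection 2. Only 0.763% of the 50-base sequences of Trim60 and 1.16% of those of Trim61 were found in another gene, so their levels can be told apart over most of their length, although they have the start shown above in common.

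Trim75 (ENSMUSG00000071089.3), the next gene on that strand from 64980884 to 64987831, was at 63.9 and 38.1 FPKM in non-injection, 34.2 and 54.6 FPKM in PIASy-Mut, and 60.2 and 54.9 FPKM in PIASy-WT. The 3 groups overlapped, unlike those of Trim60 and Trim61. None of its 50-base sequences was found in another gene. The difference from PIASy-Mut was 0.40 (SE 0.36, adjusted P=0.506 by limma), and it was 0.072 without PIASy-Mut 1 and 0.73 without PIASy-Mut 2.

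Trim36, a microtubule-associated ligase known from the testis, was at 3.93 and 4.92 FPKM in non-injection, 3.40 and 4.50 FPKM in PIASy-Mut, and 6.07 and 4.31 FPKM in PIASy-WT, and the groups overlapped. The summed level of the 9 oocyte-derived markers, all of which had over 3 fragments in every library, was 4442 and 3979 CPM in non-injection, 4053 and 6482 CPM in PIASy-Mut, and 8119 and 7798 CPM in PIASy-WT, highest in PIASy-WT as were Trim60 and Trim61. Most of the difference in this sum lay in 1 gene, Bmp15, a growth factor of the oocyte, at 1474 and 1410 CPM in non-injection, 1004 and 2278 CPM in PIASy-Mut, and 3926 and 4523 CPM in PIASy-WT. Without Bmp15 the other 8 markers summed to 2967 and 2570 CPM in non-injection, 3050 and 4203 CPM in PIASy-Mut, and 4193 and 3275 CPM in PIASy-WT, and PIASy-Mut overlapped with PIASy-WT. Of the 9 markers, only Bmp15 had both PIASy-WT libraries above all 4 others, Zp3 had both below, and 7 overlapped. The part of these markers in the levels of Trim60 and Trim61 was not tested.

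The broadly expressed list held 18 members, 13 of which were tested, and none was called in either comparison. The shares of all genes called were 5.76% lower and 1.03% higher against non-injection, and 6.01% and 0.82% against PIASy-Mut. At these shares 0 of 13 says little about the list. Against non-injection 9 of the 13 differences were negative and 4 positive, with a median of -0.06 and a range from -1.21 to 0.67. Against PIASy-Mut 8 were negative and 5 positive, with a median of -0.08 and a range from -1.30 to 0.78. The summed FPKM of the Trim43 genes divided by that of this list was from 3.04 to 4.34 in the 4 libraries of non-injection and PIASy-Mut, and 0.512 and 0.335 in PIASy-WT.

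Trim59, a membrane-bound ligase linked to proliferation, had the highest level of this list. It was at 132 and 125 FPKM in non-injection, 217 and 142 FPKM in PIASy-Mut, and 78.6 and 63.9 FPKM in PIASy-WT. Both PIASy-WT libraries were below all others. The difference was -0.85 against non-injection (SE 0.29, adjusted P=0.121 by limma) and -1.30 relative to PIASy-Mut (SE 0.29, adjusted P=0.0527 by limma), just short of the threshold. The difference from PIASy-Mut was -0.99 without PIASy-Mut 1 (adjusted P=0.110 by limma) and -1.60 without PIASy-Mut 2, when it passed (adjusted P=0.0164 by limma) in the fit that called 13.1% of all genes lower. Without any 1 of the other 4 libraries it did not pass (adjusted P from 0.111 to 0.260 by limma). It also passed with a filter of 5 FPKM, when 17.8% of all genes were called lower, and with voom on the fragments, when 11.5% were.

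Trim13, which sits in the endoplasmic reticulum membrane and is in none of these lists, resembled Trim59 in domain class and in order. It was at 175 and 141 FPKM in non-injection, 172 and 146 FPKM in PIASy-Mut, and 96.5 and 82.8 FPKM in PIASy-WT. The PIASy-WT libraries were lowest and the other groups overlapped. The difference was -0.80 against non-injection (SE 0.25, adjusted P=0.0999 by limma) and -0.82 relative to PIASy-Mut (SE 0.25, adjusted P=0.0965 by limma). Of its 50-base sequences, 14.2% were also found in Gm9359.

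The TIF1 members carry a PHD finger and a bromodomain and act on chromatin. Trim33, which targets SMAD4, was at 13.5 and 9.65 FPKM in non-injection, 17.1 and 6.44 FPKM in PIASy-Mut, and 4.85 and 5.24 FPKM in PIASy-WT. The PIASy-WT libraries were lowest, with PIASy-Mut 2 close above them, and the difference was -1.04 against non-injection (SE 0.48, adjusted P=0.217 by limma) and -0.94 relative to PIASy-Mut (adjusted P=0.263 by limma). The latter rested on which PIASy-Mut library was kept. It was -0.30 without PIASy-Mut 1 (adjusted P=0.678 by limma) and -1.58 without PIASy-Mut 2 (adjusted P=0.0378 by limma), in the fit that called 13.1% of all genes lower. Without any 1 of the other 4 libraries it did not pass (adjusted P from 0.326 to 0.504 by limma).

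Trim24, a nuclear receptor cofactor that also targets p53, was at 10.1 and 7.99 FPKM in non-injection, 9.44 and 10.2 FPKM in PIASy-Mut, and 11.95 FPKM in both PIASy-WT libraries. Its difference from non-injection was small and positive, at 0.38 (SE 0.29, adjusted P=0.430 by limma). Trim66, the third member, had 5 fragments in non-injection 1 and at most 1 in every other library, so no difference could be detected at this depth.

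Among the others of the broadly expressed list, named after their values were seen, Trim44 lay between 12.3 and 13.8 FPKM in all 6 libraries. Trim44 lacks the RING finger. Trim37, a ligase of peroxisomes and centrioles, was from 11.0 to 21.1 FPKM with overlapping groups. Trim25, which acts in antiviral RNA sensing, was at 2.42 and 4.30 FPKM in non-injection, 3.20 and 2.39 FPKM in PIASy-Mut, and 1.18 and 0.76 FPKM in PIASy-WT, with the PIASy-WT libraries lowest (difference from non-injection -1.12, SE 0.42, adjusted P=0.149 by limma).

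The tissue-restricted list held 14 members known mainly from muscle, neurons, blood or epithelia, of which 5 were tested and 0 called. Among all genes, 5.76% were called lower and 1.03% higher against non-injection, and 6.01% and 0.82% against PIASy-Mut. At these shares 0 of 5 says little about the list. Trim15 (ENSMUSG00000050747.14), a SPRY-type member found at focal adhesions, was by far the highest of the 5. It was at 38.1 and 44.2 FPKM in non-injection, 38.0 and 97.1 FPKM in PIASy-Mut, and 128 and 118 FPKM in PIASy-WT. The PIASy-WT libraries were highest, and the PIASy-Mut libraries stood apart from each other, 1 with non-injection and 1 nearer to PIASy-WT. The difference was 1.55 against non-injection (SE 0.44, adjusted P=0.0859 by limma) and 1.00 relative to PIASy-Mut (SE 0.44, adjusted P=0.207 by limma). The former passed without either PIASy-Mut library (adjusted P=0.0143 and 0.0145 by limma), with only the groups compared (adjusted P=0.0142 by limma) and with voom (adjusted P=0.0123 by limma), when from 4.66% to 6.04% of all genes were called higher. It was from 1.45 to 1.66 without any 1 of the other 4 libraries and did not pass (adjusted P from 0.259 to 0.275 by limma). The difference from PIASy-Mut was 0.33 without PIASy-Mut 1 (adjusted P=0.441 by limma) and 1.66 without PIASy-Mut 2 (adjusted P=0.0155 by limma), in the fit that called 6.43% of all genes higher. Without any 1 of the other 4 libraries it did not pass (adjusted P from 0.281 to 0.450 by limma).

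Trim10, an erythroid member, was listed at 0 fragments in all 4 non-injection and PIASy-Mut libraries and had 6 fragments in each PIASy-WT library, at 2.02 and 2.33 FPKM. Its mean FPKM in PIASy-WT was 2.01 times the FPKM of 3 fragments in non-injection and 1.54 times that in PIASy-Mut. These ratios leave out the counting error of the 6 fragments, so they are not lower bounds. Trim10 entered the test only through the PIASy-WT libraries, so the filter fixed its direction and no P is given. It is still counted among the 31 members tested.

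Trim15 and Trim10 are neighbours on chromosome 17, in a row of 5 members with no other protein-coding gene between them. In map order these are Trim26 from 36837134 to 36859398, Trim15 from 36860691 to 36867210, Trim10 from 36869574 to 36877833, Trim40 from 36881598 to 36890123 and Trim31 from 36898118 to 36910214. Trim15 and Trim10 lie on opposite strands and point away from each other. The row was picked out after the values were seen, and its values are a description.

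Trim40 was at 1.53 and 1.11 FPKM in non-injection, 0 and 1.44 FPKM in PIASy-Mut, and 4.09 and 2.18 FPKM in PIASy-WT. Trim31, like Trim40 a gene of gut epithelium, was at 1.95 and 1.57 FPKM in non-injection, 2.15 and 3.56 FPKM in PIASy-Mut, and 3.68 and 4.63 FPKM in PIASy-WT. Trim40 and Trim31, like Trim15, had both PIASy-WT libraries above all 4 others, as 19.9% of all genes tested did, and Trim26 did not. Of the 6 members on chromosome 17, which add Trim39, 0 were called in either comparison. For all genes the shares were 5.76% lower and 1.03% higher against non-injection, and 6.01% and 0.82% against PIASy-Mut, so 0 of 6 says little.

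**Figure D5:**
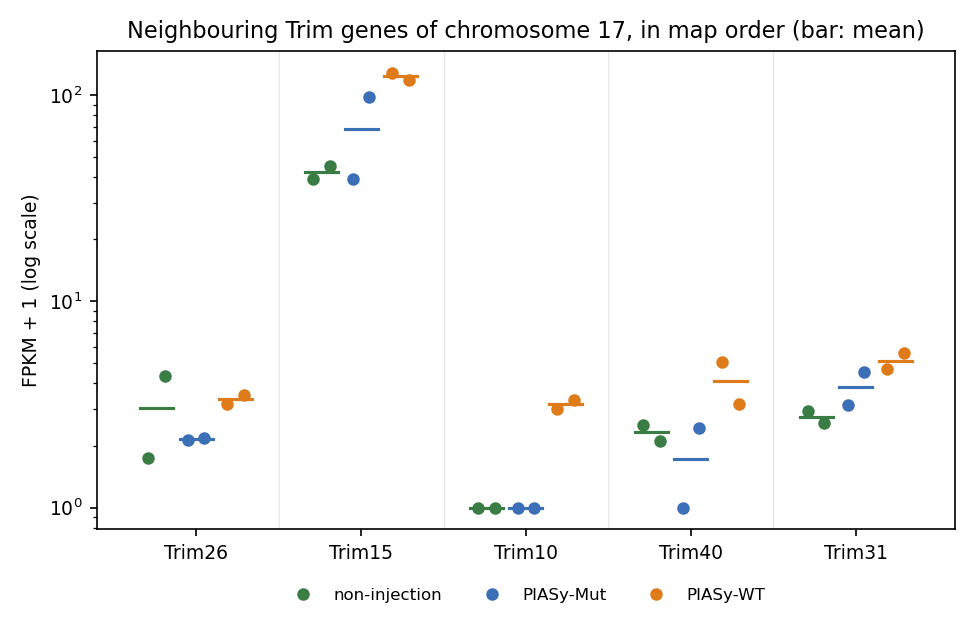
FPKM + 1 on a log axis (y axis) of the 5 neighbouring members of chromosome 17 in map order (x axis), with 2 libraries per group and a bar at each group mean. Trim15 is at 38.0 to 128 FPKM and the others are below 5 FPKM, and the PIASy-WT points are above the rest in each gene but Trim26, which for Trim10 the filter fixed.

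By domain class, directions were mixed. The 38 members of the SPRY class, 17 of them tested, held both the Trim43 genes and Trim61, and their differences were 9 negative and 8 positive against non-injection. The transmembrane class, Trim13 and Trim59, was negative in both comparisons. No other domain class had more than 3 members tested.

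Most of the members not tested were barely detected. At 0 in every library were 5 members, Trim16, Trim30c, Trim42, Trim55 and Trim68. A further 19 had from 1 to 3 fragments at most in any library, which is at the limit of detection. The other 12 had over 3 fragments in a library, up to 10 for Trim12c in PIASy-WT 1. A level of up to 3 fragments could not have been told from 0 at this depth, so the values do not show that the transcripts were absent.

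No member passed the test between PIASy-Mut and non-injection. None of the 31 was called lower, where 0% of all genes were, or higher, where 0.00621% were, and 0 had an unadjusted P under 0.05, beside 4.46% of all genes. The median difference was 0. The merged Trim43 feature differed by 0.12 (SE 0.43, adjusted P=1 by limma). The replicates of PIASy-Mut stood apart from each other for the most abundant members, as given above for Trim43a and Trim61.

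TRIM ligases need a ubiquitin-conjugating E2 enzyme, most often of the UBE2D or UBE2E family or UBE2N with its partners. Of the 10 E2 genes listed, 9 were tested and 0 were called in either comparison of PIASy-WT. Of all genes, 5.76% were called lower and 1.03% higher against non-injection, and 6.01% and 0.82% against PIASy-Mut. At these shares 0 of 9 says little about the E2 genes. Ube2d1 was at 1.006 and 1.012 FPKM in non-injection, 0 and 1.57 FPKM in PIASy-Mut, and 4.83 and 7.36 FPKM in PIASy-WT, with differences of 1.80 (adjusted P=0.101 by limma) and 2.12 (adjusted P=0.0724 by limma). Ube2v2, which helps UBE2N build a non-degradative chain, was at 4.63 and 6.21 FPKM in non-injection, 7.48 and 5.64 FPKM in PIASy-Mut, and 1.41 and 1.83 FPKM in PIASy-WT, with differences of -1.29 (adjusted P=0.0853 by limma) and -1.52 (adjusted P=0.0606 by limma). Among the 9 tested, both PIASy-WT libraries were above all 4 others for Ube2d1 and Ube2d3, as for 19.9% of all genes, and below them for Ube2v2 and Ube2e3, as for 24.4%. Ube2d3 was at 112 and 95.1 FPKM in non-injection, 69.1 and 102 FPKM in PIASy-Mut, and 203 and 151 FPKM in PIASy-WT, with differences of 0.76 (adjusted P=0.163 by limma) and 1.05 (adjusted P=0.0857 by limma). These 4 were named after their values were seen. Of 5 genes with the TRIM module but no Trim symbol, Mid1 and Rnf207 were tested and neither was called, beside the same shares of all genes. Pml, Mid2 and Mefv were below 1 FPKM in every library.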

How the data were processed

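The authors trimmed reads with Trim Galore, aligned them to mm10 with STAR, used featureCounts on the uniquely mapped reads and deposited the result as FPKM. Versions, annotation release and strand setting are not given in the sources used here. The product of FPKM and gene length was a whole multiple of the value of 1 fragment for 100% of values (tolerance 1e-06), which gave the depth. Spike-in RNA was added at lysis, but with 0 spike-in entries in the table, levels are shares of a library.

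Differences of log2(FPKM + 1) were tested with limma 3.58.1 in R 4.3.3 (lmFit and eBayes with a trend) on all 6 libraries and the 16100 genes for which 2 or more libraries were at 1 FPKM or above, with 3 residual and 3.12 prior degrees of freedom and Benjamini-Hochberg adjustment over all of them. The pseudocount of 1 understates changes of low genes. The authors used DESeq2 on their counts, which were not analysed here. An exact permutation test of 2 against 2 libraries cannot give a two-sided P below 0.333 and was not used.

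The members and lists were chosen with earlier results of these data known. The rule for named genes took the early-embryo and TIF1 lists, every member called, the 8 highest by mean FPKM, oocyte or germ cell members for which 2 or more libraries held 10 fragments or more, and, within each domain class with at least 4 members tested, the most negative and most positive member. Sequence sharing was computed with the GENCODE M21 transcripts. The alternatives were other pseudocounts, filters, scalings, eBayes settings and fold thresholds, only the groups compared, a replicate block, each library left out, voom on recovered fragments, and the Trim43 genes merged. Python 3.11.15, numpy 2.4.6, pandas 2.3.3 and matplotlib 3.10.9 were used.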

Additional observations from a re-analysis of the deposited data

How the results depend on the processing

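The direction held under every alternative run for the differences recomputed. These were both comparisons of PIASy-WT for Trim13, Trim15, Trim33, Trim43a, Trim43b, Trim43c, Trim59, Trim60 and Trim61, those of Trim24 and Trim71 from non-injection, and that of Trim75 from PIASy-Mut. The Trim43 differences ranged for Trim43a between -4.16 and -3.38 against non-injection and between -4.40 and -3.62 relative to PIASy-Mut. They stayed called in 13 or 14 of 18 alternatives against non-injection and in 12 of 18 against PIASy-Mut, with adjusted P by limma up to 0.194 and 0.127 in the others.

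Over these differences and alternatives, 339 values stayed on their side of the threshold, 22 gained a call and 32 lost one. The share of all genes called moved with these settings and is given in parentheses after each count of members, so a count is not a result about the members alone. Members called lower against non-injection numbered 3 (5.76%). They were 1 with no filter (0.553%, Trim43a), 1 with the Trim43 genes merged (5.75%), and from 0 to 3 with a library left out (0% to 11.8%). Members called higher against non-injection numbered 0 (1.03%). They were 1 with a filter of FPKM 5 (3.92%, Trim15), 1 with quantile normalization (1.45%, Trim10), 3 with only the groups compared (6.04%), 3 with voom (4.66%), 2 with voom on genes with at least 10 fragments (7.36%, Trim15 and Trim61), and from 0 to 3 with a library left out (0% to 4.96%). Members called lower against PIASy-Mut numbered 3 (6.01%). They were 0 with only the groups compared (0%), 1 with the Trim43 genes merged (966 of 16098 genes), and from 0 to 5 with a library left out (0% to 13.1%). The 5 came without PIASy-Mut 2 (13.1%) and added Trim33 and Trim59. They were 4, with Trim59, with the filter of FPKM 5 (17.8%), with voom (11.5%) and with voom on genes with at least 10 fragments (18.2%). Members called higher against PIASy-Mut numbered 0 (0.82%). They were 1 with the filter of FPKM 5 (2.44%, Trim61), 1 without the eBayes trend (0.559%, Trim10), 2 with voom (3.02%), 2 with voom on genes with at least 10 fragments (5.11%), and from 0 to 2 with a library left out (0% to 6.43%). A fit without 1 library leaves 1 in its group, which is assumed to vary like the other groups. Trim10 is among the members counted higher with quantile normalization, with only the groups compared against non-injection, without the eBayes trend, with voom, and against non-injection without either PIASy-Mut library. It passed the filter only through PIASy-WT, so these calls of Trim10 support nothing. The cause of these changes was not tested, except that merging leaves 1 feature where there were 3.

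Over the lists recomputed, 260 medians moved by less than the spread between replicates and 25 by more. That of all members tested against PIASy-Mut, 0.04, was -0.14 with the filter of FPKM 5 and 0.29 with quantile normalization, so its sign is not settled. That of the members other than the Trim43 genes was 0 for non-injection and 0.04 for PIASy-Mut with no filter, and 0.27 and 0.46 with quantile normalization. That of the oocyte or germ cell list against non-injection was 0.96 with the filter of FPKM 5 and 0.61 with voom on genes with at least 10 fragments, and that of the early-embryo list was -1.49 and -1.90 with the Trim43 genes merged. Of the differences not called, quantile normalization moved that of Trim24 to 0.61, those of Trim13 to -0.53 and -0.48, and those of Trim60 and Trim75 from PIASy-Mut to 0.92 and 0.74. Trim24 was at 0.23 without non-injection 2 and Trim71 at 0.49 without PIASy-WT 2.

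With the replicate block, 3 members were called lower in each comparison of PIASy-WT and 0 higher, and it changed no other call of a member. Libraries with the same number did not deviate together (correlations of 0.0037, 0.0851 and 0.0637). Over all genes, calls with the replicate block were 719 and 799 lower and 89 and 67 higher, beside 928 and 968 lower and 166 and 132 higher without it. Quantile normalization moved the median of all genes to 0.12 and 0.11, and centring to 0.12 and 0.15. Depth limits the 36 members not tested and the genes with few fragments, such as Trim10.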
